A study of Danio rerio with 6 samples.

Results

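The embryos injected with the standard control morpholino (coMO) were compared with embryos that were not injected, to see how far the injected control departs from the uninjected embryo. It rests on 4 of the 6 arrays of the study, chosen by their titles, and on the 15502 probe sets of an Affymetrix zebrafish array that remain of 15617 once the control probe sets are set aside. All embryos were whole zebrafish (Danio rerio) collected at 72 h after fertilization. Eggs pooled from several aquaria received coMO at 50 uM up to the 4-cell stage, or no injection, and all were raised at 28 °C. The third group, embryos given 50 uM of a morpholino that blocks translation of the estrogen receptor ERbeta2 (ERbeta2 MO), entered the model to help estimate the spread between arrays, and its signals are given beside the others. Each group has 2 arrays titled as biological replicates. Nothing states that they came from separate spawnings, so the p-values rest on the scatter among these particular samples, and that scatter may be technical. No group received an injection without a morpholino, so the oligonucleotide and the injection cannot be told apart.

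Morpholinos are synthetic antisense oligonucleotides that bind an RNA and block its translation or splicing. A standard control morpholino is designed to have no target in the embryo and serves as the injected control, with an uninjected group often kept beside it. Immediate early genes, such as fos, jun and egr genes, encode transcription factors that cells switch on within minutes of a stimulus and switch off again soon after. At the age sampled, the zebrafish retina, liver and pancreas express their differentiated products, so whole-embryo RNA holds transcripts of many tissues.

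Few transcripts separated the groups, and those that did differed by modest amounts. The transcription factor fosab, the lamin lmnb2, the coactivator ppargc1b, the mitochondrial protein diabloa, midn, irg1l and tcima fell in coMO embryos, and the adhesion molecule alcama, the vesicle protein scamp5a and the endosomal protein vps33a rose. In all, 10 probe sets were higher (0.0645% of those tested) and 11 lower (0.071%) at an adjusted p of 0.05, which makes 21 in all (0.135%). The test was limma on log2(signal + 16), with p-values adjusted by the Benjamini-Hochberg method over all 15502 probe sets. Their differences ranged from 1.6-fold to 3.49-fold with a median of 1.89-fold, and in each of the 21 both coMO arrays lay on the same side of both uninjected arrays. The groups failed to overlap in 5385 probe sets (34.7%), with coMO above in 3009 (19.4%) and below in 2376 (15.3%). With 2 arrays against 2, groups often fail to overlap when nothing differs, since an exact permutation test cannot go below p = 0.333. An unadjusted p under 0.05 was reached by 1184 probe sets (7.64%), of which 714 were higher (4.61%) and 470 lower (3.03%) in coMO. These calls sit near the threshold: leaving out any single array, of coMO, uninjected or ERbeta2 MO, left 0 calls, with 926 to 1614 probe sets at an unadjusted p under 0.05, and scaling to the hybridization controls or fitting without a trend in the variance likewise left 0. Each of the 21 probe sets kept its direction in every other processing in which it was tested.

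The size of the difference depended on signal. A difference of 2-fold or more on the offset log scale was seen in 214 probe sets (1.38%), of which 158 were higher in coMO (1.02%) and 56 lower (0.361%). Of the 214, 196 lay in the third of probe sets with the lowest mean signal, where 2 probe sets were called. In the third with the highest signal, from 409 to 76266, 4 probe sets differed by 2-fold or more and 16 were called. The median log2 difference over all probe sets was 0.02. Correlations were computed on the log2 scale across probe sets, and probe sets are no independent replicates. An array of coMO and an array of uninjected embryos gave r = 0.971 to 0.979, the pair of coMO arrays 0.975 and the pair of uninjected arrays 0.976. The SD of the log2 difference between 2 arrays was 0.395 to 0.471 across the groups, 0.426 within coMO and 0.429 within uninjected. Within ERbeta2 MO, whose arrays enter the pooled spread behind the p-values, it was smaller, at 0.336 (r = 0.987).

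**Figure D1:**
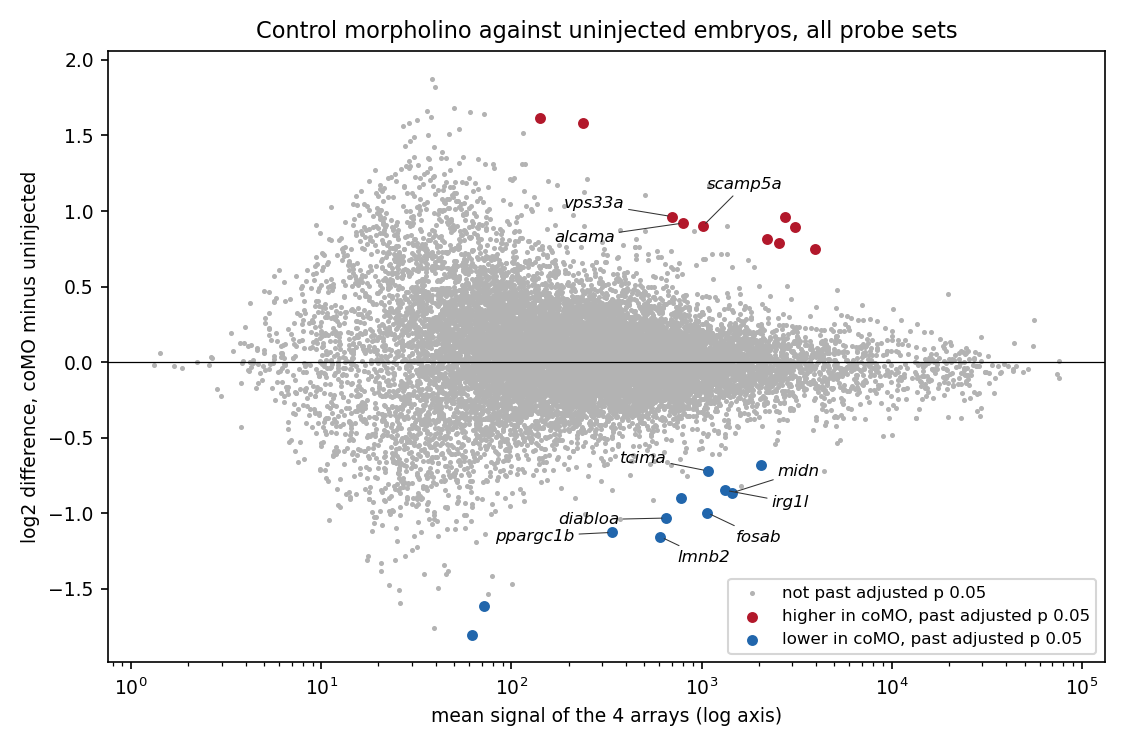
Log2 difference between coMO and uninjected embryos (vertical axis, on log2(signal + 16)) against the mean signal of the 4 arrays (log axis), one point per probe set; red and blue points mark the 10 higher and 11 lower probe sets past adjusted p 0.05, and gene symbols mark those with a name. Differences fan out at low signal, and most called probe sets lie where the signal is above 409.

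Gene names were available for part of the array. The deposited tables of the authors' comparisons, which list probe sets that the authors picked in comparisons of these same arrays, gave an informative symbol to 1822 probe sets (11.8%) of 1669 genes. Named genes are therefore selected on these samples. Of the 1822, 10 were called (0.549%), and of the probe sets without such a name 11 were called (0.0804%). The comparison of ERbeta2 MO with coMO lists 7 higher and 3 lower called probe sets that ERbeta2 MO against uninjected does not. Among these, named or not, some of the higher ones are also listed in the comparison of uninjected with coMO. Where the ERbeta2 MO signals of named genes lie relative to coMO is therefore in part selected by the naming.

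The decrease with the smallest p was that of fosab, which encodes a Fos subunit of the AP-1 transcription factor. One of its 4 probe sets gave signals of 1517 and 1338 in uninjected embryos and 696 and 717 in coMO embryos, with 1277 and 1282 in ERbeta2 MO embryos. The coMO arrays were thus the lowest of the 6, and the log2 difference between coMO and uninjected was -0.996 ± 0.126 (SE; adjusted p = 0.0212). The other 3 probe sets of fosab measured -0.91 (adjusted p = 0.0592), -0.67 (adjusted p = 0.159) and -0.58 (adjusted p = 0.238), all with both coMO arrays below both uninjected arrays. The place of ERbeta2 MO varied among them. In the probe set at -0.67 its arrays, at 375 and 376, lay below the coMO arrays, at 380 and 440. In those at -0.91 and -0.58 the coMO arrays were the lowest. Whole embryos were measured, so fewer cells that express a gene and less RNA per cell cannot be told apart, here and in the results that follow.

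Another 3 named genes were lower in both injected groups than in uninjected embryos. The lamin gene lmnb2, named through an older symbol of the files, encodes a B-type lamin of the nuclear envelope. Its signal was 903 and 785 in uninjected embryos and 427 and 319 in coMO embryos, with 480 and 461 in ERbeta2 MO embryos, a difference of -1.16 ± 0.164 (SE; adjusted p = 0.0212) between coMO and uninjected. Both injected groups lay below the uninjected arrays. The same order held for ppargc1b, whose mammalian counterpart is a coactivator of genes for mitochondrial metabolism. It measured 502 and 439 in uninjected, 231 and 184 in coMO and 287 and 262 in ERbeta2 MO embryos (log2 difference -1.13 ± 0.178, SE; adjusted p = 0.0298). The diabloa probe set, for a mitochondrial protein that in mammals binds inhibitors of apoptosis once released, gave 896 and 863 in uninjected embryos, 457 and 389 in coMO and 376 and 381 in ERbeta2 MO embryos. Its log2 difference was -1.03 ± 0.146 (SE; adjusted p = 0.0212), and no injected array came near the uninjected ones. The uninjected arrays serve as control for both injected groups, so these values are not independent of each other. The authors' comparison of uninjected with coMO lists lmnb2 and ppargc1b, as it does irg1l and scamp5a below. The values of these genes are therefore in part selected on the comparison itself.

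A further 3 genes that fell in coMO had their highest signals in ERbeta2 MO embryos. The first, irg1l, is a relative of the enzyme that makes itaconate in mammalian macrophages. Its signal was 1925 and 1522 in uninjected, 884 and 1007 in coMO and 4457 and 4735 in ERbeta2 MO embryos, and coMO differed from uninjected by -0.85 ± 0.136 (SE; adjusted p = 0.0298). The second, midn, encodes midnolin, which in mammalian cells carries nuclear proteins, products of immediate early genes among them, to the proteasome. Signals of 1996 and 1732 in uninjected embryos stood against 1056 and 972 in coMO and 2839 and 3903 in ERbeta2 MO embryos, with a log2 difference of -0.87 ± 0.150 between coMO and uninjected (SE; adjusted p = 0.0468). The third, tcima, a transcriptional and immune response regulator, gave 1291 and 1395 in uninjected, 821 and 797 in coMO and 1632 and 1662 in ERbeta2 MO embryos (log2 difference -0.72 ± 0.121, SE; adjusted p = 0.0426). In all 3 the coMO arrays were the lowest of the 6. Because names come from the authors' comparisons, the place of ERbeta2 MO is in part selected, here and for the other named genes.

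Of the 10 probe sets that rose, 3 carry a gene name. The gene alcama encodes an immunoglobulin-type adhesion molecule found on growing axons. It measured 559 and 542 in uninjected embryos and 1056 on both coMO arrays, with 1287 and 1521 in ERbeta2 MO embryos, so that both injected groups lay above the uninjected one (log2 difference of coMO 0.92 ± 0.132, SE; adjusted p = 0.0212). The gene scamp5a encodes a secretory carrier membrane protein that in mammals is found on synaptic vesicles. Its signal was 751 and 652 in uninjected, 1453 and 1198 in coMO and 444 and 379 in ERbeta2 MO embryos, so the coMO arrays were the highest (log2 difference 0.90 ± 0.151, SE; adjusted p = 0.0426). The coMO arrays were again the highest for vps33a, a subunit of the complexes that tether endosomes and lysosomes before fusion. One probe set gave 455 and 483 in uninjected, 863 and 1000 in coMO and 421 and 396 in ERbeta2 MO embryos (log2 difference 0.96 ± 0.145, SE; adjusted p = 0.0232). A second probe set with the same clone name in the files measured -0.05, so the vps33a value rests on 1 of 2 probe sets that disagree.

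**Figure D2:**
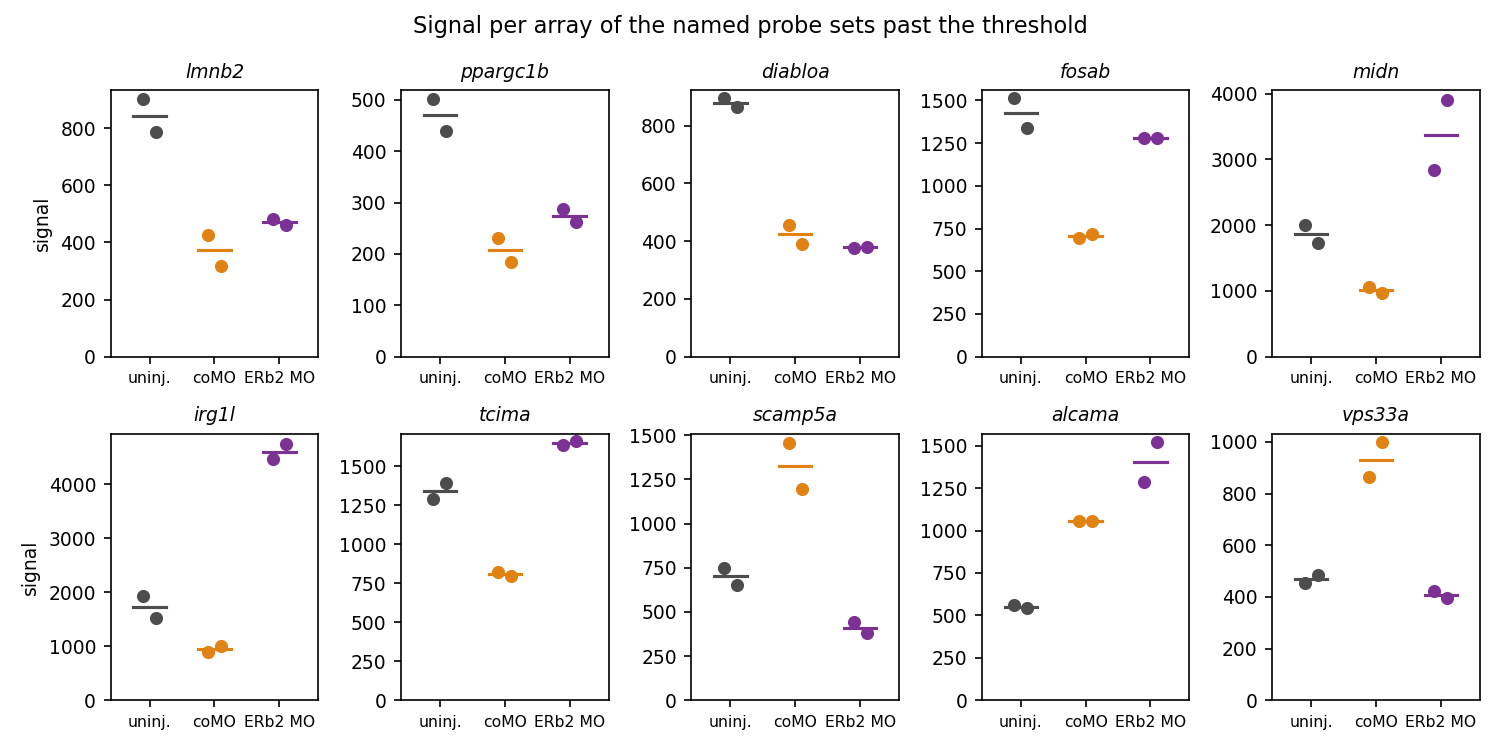
Signal (linear axis from 0) of the 10 named probe sets past the threshold on each of the 6 arrays; points are arrays, bars are group means, and the groups are uninjected (uninj.), coMO and ERbeta2 MO (ERb2 MO), with 2 arrays each. For lmnb2, ppargc1b and diabloa both injected groups lie below the uninjected arrays, and for alcama both lie above. In the probe sets shown of fosab, midn, irg1l and tcima the coMO arrays are the lowest of the 6.

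Of the other 11 called probe sets, 6 had no gene in the tables, 3 were not listed in them, 1 matched several genes and 1 carried only a locus name. They are given here by the cluster number that opens their identifier. The largest increases were those of Dr.25976, a transcribed locus, and Dr.15402, described as similar to a mitochondrial ribosomal protein. Dr.25976 went from 59.9 and 60.6 in uninjected embryos to 261 and 182 in coMO embryos (log2 difference 1.62; adjusted p = 0.0232). Dr.15402 went from 149 and 80.5 to 337 and 387 (1.58; adjusted p = 0.0232). The increases with the smallest p were smaller and came from more than 1 probe set of a single cluster, Dr.25767. These differed by 0.90 and 0.96 (adjusted p = 0.0212 each). Their identifiers differ only in the ending, so they are no separate evidence, although both count among the increases. The largest decreases were those of Dr.19015, listed under the locus name si:dkey-78l4.2, and Dr.26264. Dr.19015 gave 73.3 and 140 in uninjected and 16.3 and 19.4 in coMO embryos (-1.80; adjusted p = 0.0426), where the coMO signals are close to the offset of 16 and the difference therefore depends on it. Dr.26264 gave 129 and 103 in uninjected and 25.6 and 28.2 in coMO embryos (-1.61; adjusted p = 0.0440).

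Several named genes came next by the size of the test statistic without passing it. The complement regulator cfp (properdin) measured 546 and 470 in uninjected and 275 and 208 in coMO embryos (log2 difference -1.04; adjusted p = 0.0740). The intestinal fatty acid-binding protein gene fabp1b.1 measured 4928 and 6093 against 3675 and 3004 (-0.72; adjusted p = 0.0831). On the other side, a probe set of the small heat shock protein gene hspb8 measured 97.5 and 76.6 in uninjected and 277 and 174 in coMO embryos (1.2; adjusted p = 0.0776), whereas its second probe set gave 0.16 with overlapping groups. The chaperone gene fkbp5, a classic target of glucocorticoids, measured 919 and 693 against 1273 and 1309 (0.68; adjusted p = 0.119). The neuronal membrane protein gene plppr1 measured 410 and 450 against 649 and 813 (0.74; adjusted p = 0.117). In these 5 genes the groups did not overlap in the probe sets with the larger values, as in 34.7% of all probe sets. They were picked by the test statistic, which favours groups that do not overlap, so this adds no evidence.

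The immediate early factors were examined as a list of 43 genes, of which 17 had named probe sets, 22 in all. Only 1 of the 22, of fosab, passed the test, and none rose. The coMO mean was below the uninjected mean in 20 of the 22, against 7185 of all 15502 probe sets, and both coMO arrays lay below both uninjected arrays in 14 (15.3% of all probe sets did so), while both lay above in 0 (19.4% of all). The median log2 difference was -0.28. The growth response factor egr1 measured 311 and 324 in uninjected and 188 and 196 in coMO embryos, a log2 difference of -0.68 (95% interval -1.09 to -0.27; adjusted p = 0.290). The early response gene ier2b measured 1199 on both uninjected arrays against 774 and 833 in coMO (-0.57, 95% interval -0.85 to -0.29; adjusted p = 0.165). In both genes the coMO arrays lay below both uninjected arrays, as in 15.3% of all probe sets, and neither gene passed the test. Both were chosen after their values were seen. Among partners of Fos in AP-1, junbb differed by -0.44 (95% interval -0.72 to -0.16) and junba by -0.38 (95% interval -0.69 to -0.08). The gene jdp2b, outside the list and known in mammals as a repressor of AP-1, differed by -0.66 (adjusted p = 0.256). The authors' comparison of uninjected with coMO lists jdp2b, so its value is selected on the comparison itself and adds no evidence. The values above 0 were those of klf2a, at 0.12, and of 1 of 3 probe sets of fosl2, at 0.02.

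How the list was named bears on these counts. The 4 fosab probe sets carry a name only because the deposited table of uninjected against coMO lists them, so their values are selected on the comparison itself. Over the 14 members that both ERbeta2 MO tables list, 12 were below 0, both coMO arrays were below both uninjected arrays in 8 (57.1%), and the median was -0.21. Over all 2249 probe sets that both of those tables list, the same held for 17.4%, with a median of 0.004. Both of those tables also rest on the control arrays compared here. The list's median stayed below 0 in every processing tried, between 0.25 and 0.38 below the median of all probe sets, and when single arrays were left out 18 to 21 members were below 0.

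The list of photoreceptor and visual cycle genes also lay mostly below 0. Of 85 genes 28 had named probe sets, 32 in all; none was called, and the median log2 difference was -0.25. Of the 32, 28 were below 0, against 7185 of all 15502 probe sets. Both coMO arrays were below both uninjected arrays in 21 (15.3% of all probe sets) and above in 1 (19.4% of all). Among the visual pigments, rod opsin rho measured 14276 and 16710 in uninjected and 11929 and 13021 in coMO embryos (-0.31, 95% interval -0.57 to -0.05; adjusted p = 0.554). The green cone opsin opn1mw2 measured 1053 and 1076 against 789 and 826 (-0.39; adjusted p = 0.577), while the ultraviolet cone opsin opn1sw1 measured 22695 and 26381 against 22545 and 24734 with overlapping groups (-0.05, 95% interval -0.32 to 0.22). Opsins thus differed little and unevenly. In the signalling cascade, the cone phosphodiesterase subunit gene pde6c had the smallest p of the list, with 6107 and 6081 in uninjected and 4004 and 4412 in coMO embryos (-0.53; adjusted p = 0.161). Its inhibitory subunit genes pde6ha and pde6hb differed by -0.51 (adjusted p = 0.319) and -0.39 (adjusted p = 0.40), although another pde6ha probe set gave -0.17, and the rod transducin gene gnat1 differed by -0.48 and -0.40 on its 2 probe sets. Another transducin gene, the tissue marker gnat2, differed by less, at -0.26 with overlapping groups (adjusted p = 0.783) and -0.19 (adjusted p = 0.821). In the visual cycle, rpe65a, the isomerase of the pigment epithelium, differed by -0.50 and -0.46. The member with both coMO arrays above was nr2e3, a photoreceptor transcription factor, at 0.65 (adjusted p = 0.467).

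Over the 29 photoreceptor members that both ERbeta2 MO tables list, 25 were below 0 and both coMO arrays were below both uninjected arrays in 20 (69.0%), against 17.4% of all probe sets listed in both. Those tables rest on the control arrays compared here. Members of this list, as of the immediate early list, were measured on the same arrays, some genes with several probe sets. They are therefore not independent observations. The median stayed 0.21 to 0.30 below that of all probe sets in every processing tried, and 25 to 28 members were below 0 when single arrays were left out.

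**Figure D3:**
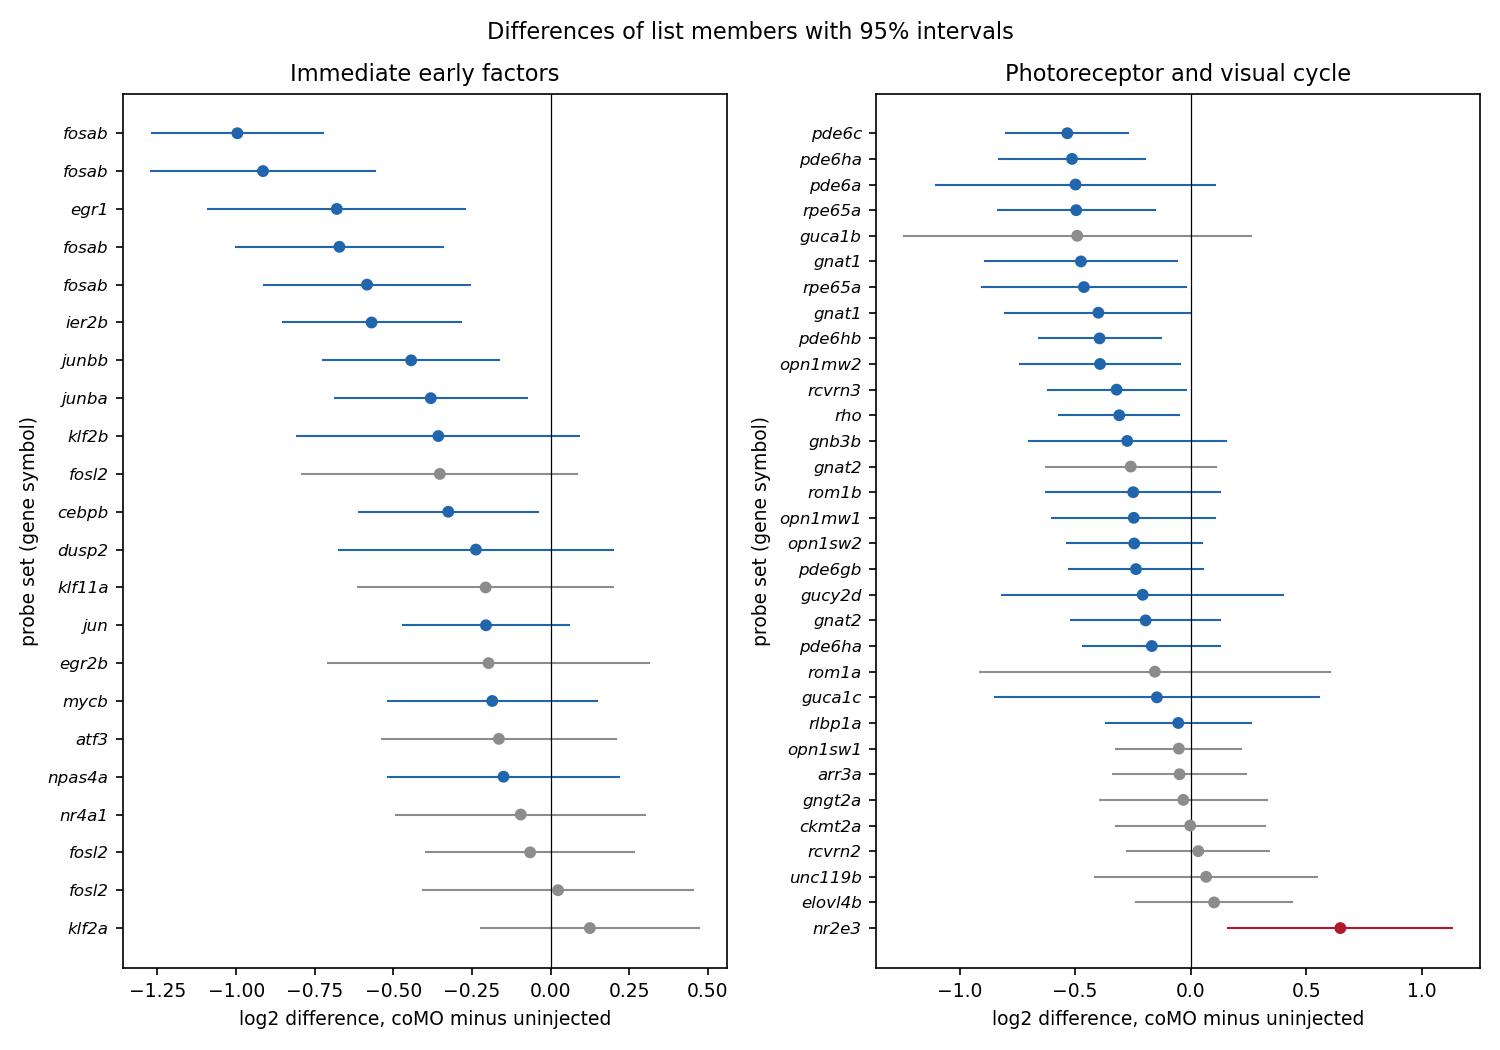
Log2 difference between coMO and uninjected embryos with its 95% interval for each named probe set of the immediate early factors (left, 22) and of the photoreceptor and visual cycle genes (right, 32). Blue and red mark probe sets in which both coMO arrays lay below or above both uninjected arrays, and grey those that overlap; only the top fosab probe set passed the test.

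The lens list held 6 named probe sets. All 6 had coMO means above the uninjected means, as did 8317 of all 15502 probe sets, and 3 of them had both coMO arrays above (19.4% of all), with 0 called. The median was 0.28, but -0.06 when arrays were scaled to the poly-A spikes and 0.13 without uninjected replicate 1, and without coMO replicate 2 1 member was below 0. Poly-A scaling also moved the median of all probe sets, to -0.29. Measured from the median of all probe sets, the list's median was 0.11 to 0.33 in the processings where it was computed. The lens intermediate filament gene bfsp2 measured 727 and 455 in uninjected and 1028 and 775 in coMO embryos (0.62; adjusted p = 0.509), and crybb1, a crystallin of the lens fibre cells, 11779 and 12958 against 14503 and 14922 (0.25; adjusted p = 0.624). The spread within the uninjected group was wide for bfsp2 and narrow for crybb1. Of the 6, crybb1 carries a name only because the authors' comparison of ERbeta2 MO with coMO lists it, so it is selected on the coMO arrays. It is 1 of the 3 with both coMO arrays above. Over the 5 members that both ERbeta2 MO tables list, both coMO arrays were above in 2 (40%), against 17.9% of all probe sets listed in both.

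Lists for stress and growth showed small shifts. Of all 15502 probe sets, 8317 were above 0 and 0.135% were called, so 0 calls in lists of this size say little. Members carry names from the authors' comparisons of these same arrays, so they are selected on these samples. Of the heat shock and unfolded protein genes, 18 of 25 probe sets were above 0 and 0 were called (median 0.09, below 0 under scaling to the poly-A spikes). Both ERbeta2 MO tables list 22 of them, with 16 above 0. In 7 of the 22 (31.8%) both coMO arrays were above both uninjected arrays, against 17.9% of all probe sets listed in both. In 0 of the 22 both were below, against 17.4%. Genes of the amino acid response and of tRNA synthetases were above 0 in 16 of 21 with 0 called (median 0.16, also below 0 under poly-A scaling), among them wars1, the tryptophan enzyme, at 0.47 (adjusted p = 0.388). Nucleolar genes of ribosome assembly were above 0 in 47 of 66 with 0 called (median 0.07, below 0 when scaled to poly-A spikes or to hybridization controls). Poly-A scaling also moved the median of all probe sets below 0, to -0.29. Measured from the median of all probe sets, these list medians stayed above 0 in every processing. The lowest values were 0.006 for the heat shock list, 0.07 for the amino acid list and 0.04 for the nucleolar list. The DNA damage and apoptosis list had 4 of 8 probe sets above 0, 0 called, and a median of 0.03 whose sign varied with the scaling. Leaving out single arrays moved the median of the heat shock list to between 0.03 (without coMO replicate 2) and 0.14 (without uninjected replicate 2), that of the amino acid list down to 0.08 (without uninjected replicate 1) and that of the nucleolar list up to 0.13 (without coMO replicate 1). In the cell cycle list lmnb2, a structural protein, was the only call among 12 probe sets (median -0.01).

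Immune and plasma protein genes were mixed, although most of the innate immune list was below 0. The innate immune and interferon list held 14 named probe sets, with irg1l as its only call and a median of -0.09, which was -0.19 without uninjected replicate 1. That median stayed below 0 in every processing. Of the 14, 10 were below 0, against 7185 of all 15502 probe sets. Both coMO arrays lay below both uninjected arrays in 6 (15.3% of all probe sets) and above in 2 (19.4% of all). Of the 14, 4 carry a name only because the authors' comparison of ERbeta2 MO with coMO lists them. These 4 are thus selected on the coMO arrays, and they supply 3 of the 6 and 1 of the 2. Over the 9 members that both ERbeta2 MO tables list, 7 were below 0, with a median of -0.05. In 3 of the 9 (33.3%) both coMO arrays were below, against 17.4% of all probe sets listed in both. The cytokine signalling inhibitor socs3a measured -0.52 (adjusted p = 0.255), its relative socs1a 0.49 (adjusted p = 0.587) and the complement component c6.2 0.60 (adjusted p = 0.280), so members stood on both sides. Leukocyte markers numbered 6 with 0 called (median 0.06, and -0.06 without uninjected replicate 1). Liver and plasma protein genes were below 0 in 21 of 32 with 0 called (median -0.10, 0.02 without coMO replicate 1 and -0.21 without coMO replicate 2), among them the apolipoprotein gene apom at -0.45 (adjusted p = 0.220). In the exocrine pancreas list the elastase gene cela1.5 gave the lowest value, with 128 and 141 in uninjected and 74.8 and 50.8 in coMO embryos (-0.95; adjusted p = 0.437), while the list's median was -0.05 over 21 probe sets and 0 were called. That median turned to 0.02 without coMO replicate 1 and 0.04 without uninjected replicate 2, and was -0.14 without coMO replicate 2. The hair cell and lateral line list, the organ system of the study's title, had 9 named probe sets, 4 above and 5 below 0, 0 called and a median of -0.00457 that turned to 0.04 without coMO replicate 2.

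**Figure D4:**
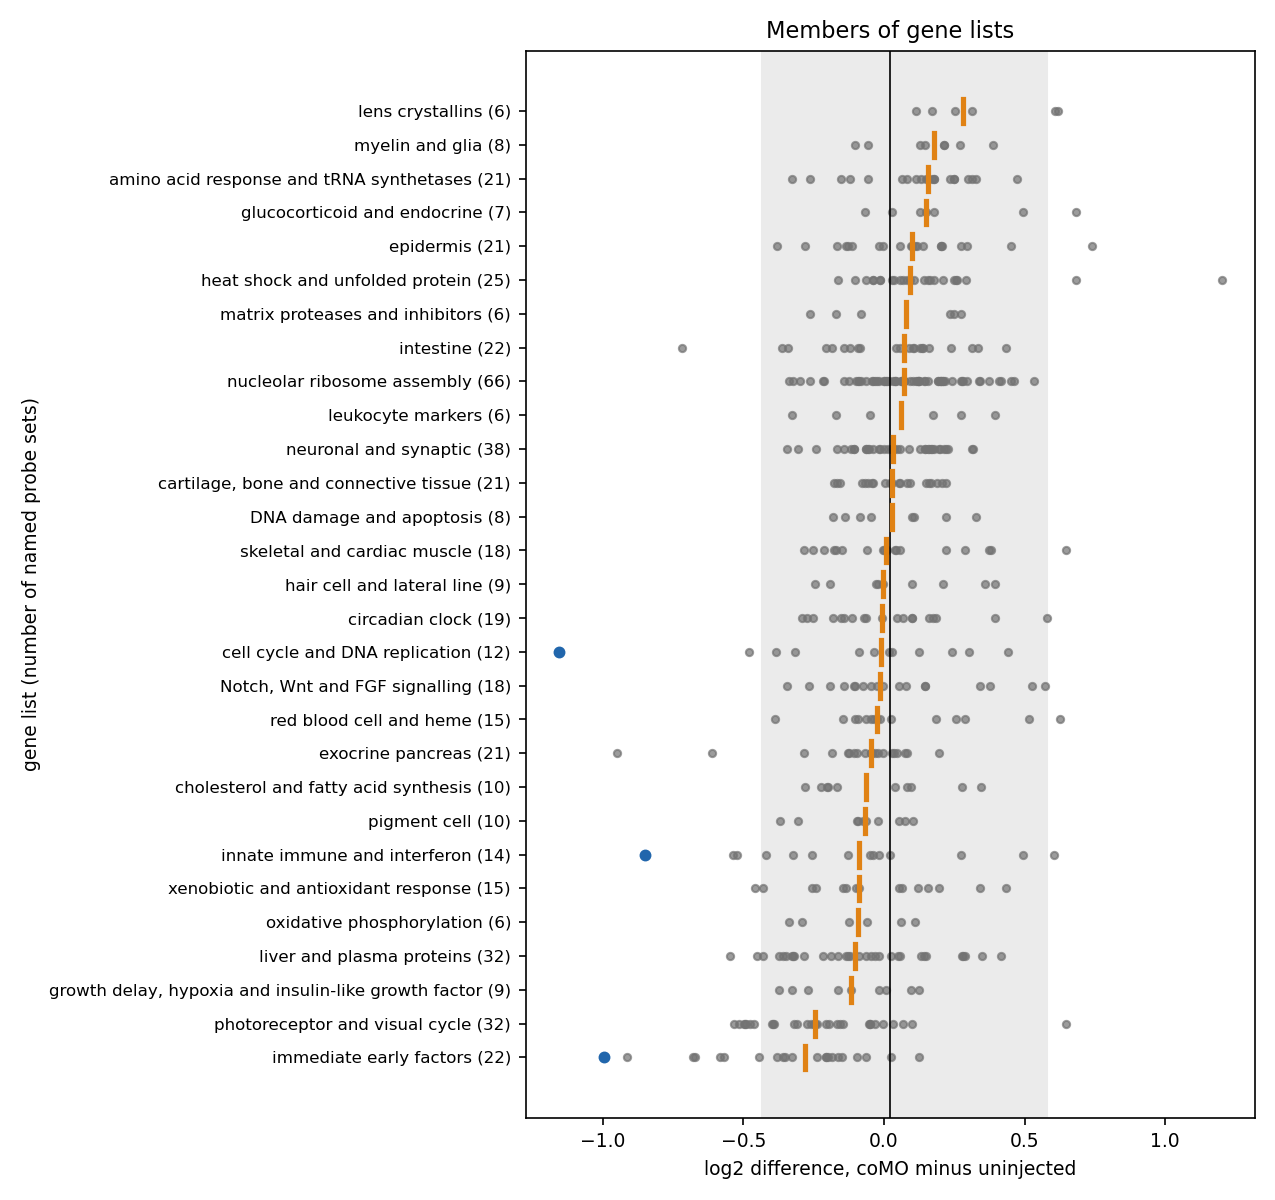
Log2 difference between coMO and uninjected embryos for the named probe sets of the 29 lists with at least 5 of them, ordered by median (orange bars); blue points passed the test, the black line is the median of all probe sets (0.02) and the grey band spans the 5th to 95th percentile of all differences (-0.43 to 0.58). The medians of the immediate early (-0.28) and photoreceptor (-0.25) lists are the lowest, and most members of every list lie inside the band.

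The remaining lists with at least 5 named probe sets, among them those for muscle, blood, neurons, glia, gut, skin, skeleton, pigment, clock, hormones, signalling and metabolism, had 0 calls, with medians between -0.12 and 0.18, several of which turned sign with an array left out or with the scaling. The vitellogenin and hatching gland lists had 2 named probe sets each and 0 calls.

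None of the named tissue markers passed the test. The liver marker fabp10a measured 2308 ± 438 (SD, n = 2) in uninjected and 2333 ± 238 (SD, n = 2) in coMO embryos, a log2 difference of 0.02 with a 95% interval from -0.36 to 0.41. The pancreatic enzyme gene ctrb.1 measured 5732 ± 126 and 5556 ± 466 (SD, n = 2 each; 95% interval of the log2 difference -0.34 to 0.25), and the leukocyte lysozyme gene lyz 1126 ± 86.1 and 1087 ± 80.9 (SD, n = 2 each; 95% interval -0.35 to 0.25). The red cell heme enzyme gene alas2 measured 200.1 ± 0.989 and 197 ± 14.99 (SD, n = 2 each; 95% interval -0.39 to 0.34). Embryonic globin genes did not share that value: hbbe2 measured 2847 and 2928 in uninjected and 2161 and 2253 in coMO embryos (-0.39, 95% interval -0.63 to -0.15; adjusted p = 0.332). The other, hbbe3, was near the offset, with 14.4 and 14.9 in uninjected and 21.7 and 43.3 in coMO embryos (0.63, 95% interval 0.12 to 1.13; adjusted p = 0.534). In both globin genes the groups did not overlap, as in 34.7% of all probe sets, and the genes differed in opposite directions. The hatching gland gene he1.1 was also low, with 16.1 and 23.2 in uninjected and 65.1 and 7.95 in coMO embryos, so its presence is not shown. The neuronal genes gad1b and snap25a differed by 0.04 and -0.05. Differences inside those intervals were not resolved with 2 arrays a group. The muscle markers mylpfa, acta1b and ckma had no named probe set and were not used here; the muscle list, with 18 other named probe sets, had 0 calls and a median of 0.01.

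The authors' deposited table of uninjected against coMO lists 21 probe sets, and their folds were not used here. The authors picked these on the same arrays, so the following counts describe that choice and are no independent evidence. All 21 had groups without overlap in the signals (34.7% of all probe sets did), 12 higher and 9 lower in coMO, and 9 of them were called here, 5 higher and 4 lower. They carry 8 informative gene symbols in 11 probe sets, which are fosab with 4, and lmnb2, ppargc1b, irg1l, jdp2b, scamp5a, plppr1 and ncana. The last, a brain proteoglycan gene, measured 89.7 and 106 in uninjected and 112 and 113 in coMO embryos, a log2 difference of 0.18 (adjusted p = 0.891). A further 12 probe sets were called here and are not listed, and 209 differed here by 2-fold or more and are not listed.

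Median signal and GAPDH ratios differed little between the coMO and uninjected groups, while the poly-A spikes averaged higher in coMO. The median signal was 228 and 224 on the coMO arrays and 222 and 221 on the uninjected arrays. GAPDH control probe sets compare the 3′ with the 5′ part of the transcript, and their ratio rises when RNA is degraded; it was 1.66 and 1.34 in coMO and 1.47 and 1.35 in uninjected embryos. For actin the same ratio was 7.64 and 5.72 in coMO and 5.41 and 10.04 in uninjected embryos, without separating the groups. Poly-A spikes, RNAs added before labelling, averaged 7.33 and 7.68 in coMO and 6.99 and 7.33 in uninjected embryos on the log2 scale, so that scaling to them lowered the median difference of all probe sets to -0.29. Hybridization controls averaged 11.53 on both coMO arrays and 11.31 and 11.58 on the uninjected arrays, and scaling to them left 0 calls. The part of spike and control levels in the results was not tested. The ERbeta2 MO arrays stood apart in quality, with GAPDH ratios of 2.14 and 2.15 and actin ratios of 13.6 and 11.6. Their poly-A spikes averaged 6.57 and 6.25. Signals of ERbeta2 MO embryos set beside the others thus come from arrays of unlike quality, and the part of this was not tested.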

How the data were processed

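Values are probe set intensities that the authors deposited on a linear scale, and the submitters' processing notes name MAS5, with neither version nor settings. The trimmed mean (2% at each end) is about 500 on every array. The authors also deposited 3 tables with a fold, a linear ratio between groups; their fold columns were not read, and only identifiers, gene symbols and descriptions were taken. Of 3125 probe sets so listed, 2325 name 1 gene, 219 several and 581 none; a reference gene table matched 1664 of the former through the Entrez identifier, 42 through the current symbol and 197 through an older one, and 422 kept the file's symbol. Columns of values with no sample numbered 0.

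From these, log2(signal + 16) of all 6 arrays entered limma 3.58.1 (lmFit, then eBayes with a variance trend, in R 4.3.3), which left 3 residual and 10.5 prior degrees of freedom, with neither a replicate block nor a filter. An exact permutation test of 2 arrays against 2 cannot go below p = 0.333, so p-values rest on the pooled spread, and the number of arrays limits the precision. Named were called probe sets, the next by moderated t up to 12 a direction, named members of the authors' table, up to 3 members of each of 31 lists by p, and tissue markers. Genes named beyond that were chosen after their values were seen. The members and lists were chosen with earlier results of these data known, and lists are described without a test. The 19 alternatives cover offsets, filters, scalings, variance models, the replicate block and each array left out.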

Additional observations from a re-analysis of the deposited data

How the results depend on the processing

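The counts of called probe sets depended on the processing. With the 40% of lowest mean signal left out, 45 were called (26 higher, 19 lower; 16 named, 7 members of lists), 18 of them shared with the 21 reported, and with 60% left out 43 (26 higher, 17 lower; 7 members of lists). Scaling to the hybridization controls gave 0 calls, none higher, lower or named, with 845 at an unadjusted p under 0.05, and eBayes without a trend also gave 0 in limma, with 1164. Scaling to the poly-A spikes gave 10 calls, 0 higher and 10 lower, 4 of them named. The fit of only the 4 compared arrays gave 9 (5 higher, 4 lower; 6 named). Offsets of 1 and 64 gave 15 and 17, with 7 lower under each; the higher ones numbered 8 and 10. Quantile normalization, median centring and robust eBayes gave 19, 22 and 23. Nothing in the labels says whether replicate numbers pair the samples. The deviations of same-numbered coMO and uninjected arrays correlated at 0.0325 across probe sets, which cannot settle it. The replicate block gave 25 calls on all 6 arrays and, on the 4 compared arrays, 136 (85 higher, 51 lower; 24 named, 13 members of lists). Leaving out each array gave 0 to 0 calls of every kind. No direction of a called probe set turned. With members restricted to those in both ERbeta2 MO tables, a setting chosen after seeing the data, the medians were -0.21 for immediate early factors and -0.24 for photoreceptor genes. The cause of these changes was not tested. With 2 arrays a group and 0 calls without any one array, single genes near the threshold are weakly supported, and at low signal only large differences can be resolved.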
